A study of Rattus norvegicus with 51 samples.

Results

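Longitudinally stretched cardiac tissue was compared between 24 h and 6 h of cyclic stretch, on 6 of the 51 arrays of the study: 3 arrays at 24 h (harvests 2, 4 and 5) and 3 at 6 h (harvests 3, 4 and 5), chosen by the layout, stretch direction and time in their labels. The tissue was made from neonatal ventricular myocytes of Sprague-Dawley rats, seeded on silicone membranes that carried a micropattern of fibronectin, which gives an anisotropic, aligned layout. Cells attached for 1 h without stretch and were then stretched along the pattern for 6 or 24 h. Per the labels, culture was in M199 medium with 10% serum during the first 48 h, so both times fell in that phase, and the 2% serum used later was not reached. The stretched tissue at 24 h was also the older culture, so hours of stretch and hours in culture cannot be told apart within these 6 arrays. Unstretched anisotropic tissue (3 arrays at 6 h, harvests 1, 2 and 5, and 3 at 24 h, harvests 1, 2 and 4) passed through the same times. So did anisotropic tissue stretched across the pattern, called transverse (3 at 6 h, harvests 3, 4 and 5, and 3 at 24 h, harvests 4, 5 and 6). The 0 h group held 6 arrays of isotropic tissue, 1 per harvest. Neither the labels nor the design text state how far or how fast the membranes were stretched, or how old the animals were.

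Freshly isolated heart cells go through a wound-like phase: isolation, attachment and serum switch on inflammatory and stress genes, and non-myocytes are carried along with the myocytes. Stretch is a classical stimulus of cardiac myocytes, which answer with early cytokine and transcription factor genes and later with the foetal programme of natriuretic peptides and cytoskeletal proteins. Serum response factor, an activator of actin genes, is among the factors known to answer load.

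All levels are log2 signals after robust multi-array averaging (RMA), so that a difference of 1 is a doubling of signal. The 3 values of a longitudinal group are given in the order of harvests 3, 4 and 5 at 6 h and harvests 2, 4 and 5 at 24 h. Those of unstretched anisotropic tissue follow harvests 1, 2 and 5 at 6 h and harvests 1, 2 and 4 at 24 h. Transverse values follow harvests 3, 4 and 5 at 6 h and harvests 4, 5 and 6 at 24 h. A change is 24 h minus 6 h as fitted with limma over all 51 arrays with harvest as a term, ± its standard error, and a gene is said to have risen or fallen only at a Benjamini-Hochberg adjusted p of at most 0.05. Median signal of the 6 arrays lay between 5.34 and 5.38. Pearson's r across genes, which are not independent replicates, was 0.9942 to 0.9967 between arrays of the same time and 0.9822 to 0.9873 between the times. Only 3 arrays per group limit the precision. A pair of isotropic arrays that enter the fit through harvest and spread lay away from their labels: on an axis set at 0 by unstretched anisotropic tissue of 24 h and at 1 by that of 96 h, replicate 1 of stretched isotropic tissue at 24 h stood at 0.902 (the others at 0.067 and 0.056), and replicate 1 of unstretched isotropic tissue at 96 h at 0.215 (the others at 1.035 and 1.008). The 6 longitudinal arrays held the markers of their label: all 10 cardiomyocyte markers read between 9.04 and 12.64, with troponin T (Tnnt2) at 12.50, 12.64 and 12.51 at 6 h and 12.29, 12.52 and 12.45 at 24 h. Of those 10 markers, only Tnni3 passed the test.

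Between 6 h and 24 h of longitudinal stretch, 1196 genes rose and 1487 fell among 18838 genes tested, which is 6.35% and 7.89% (14.2% in all). Of the genes called, 349 rose and 555 fell by at least 1.5-fold (1.85% and 2.95% of all genes, 4.8% together). The median change of all genes was 0.02. Inside harvest 4 and inside harvest 5, where both times were measured on cells of the same isolation, the sign matched the fitted one in both for 2677 of the 2683 called genes (99.8%), against 64.6% of all genes. The fit used those arrays, so the match is a description. With the 2 isotropic arrays exchanged the counts were 1546 and 1855, and with both left out 1562 and 1900. Single arrays mattered: 695 rose and 969 fell without the 6 h array of harvest 4, 775 rose and 980 fell without that of harvest 5, and 882 fell without the 24 h array of harvest 5.

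**Figure D1:**
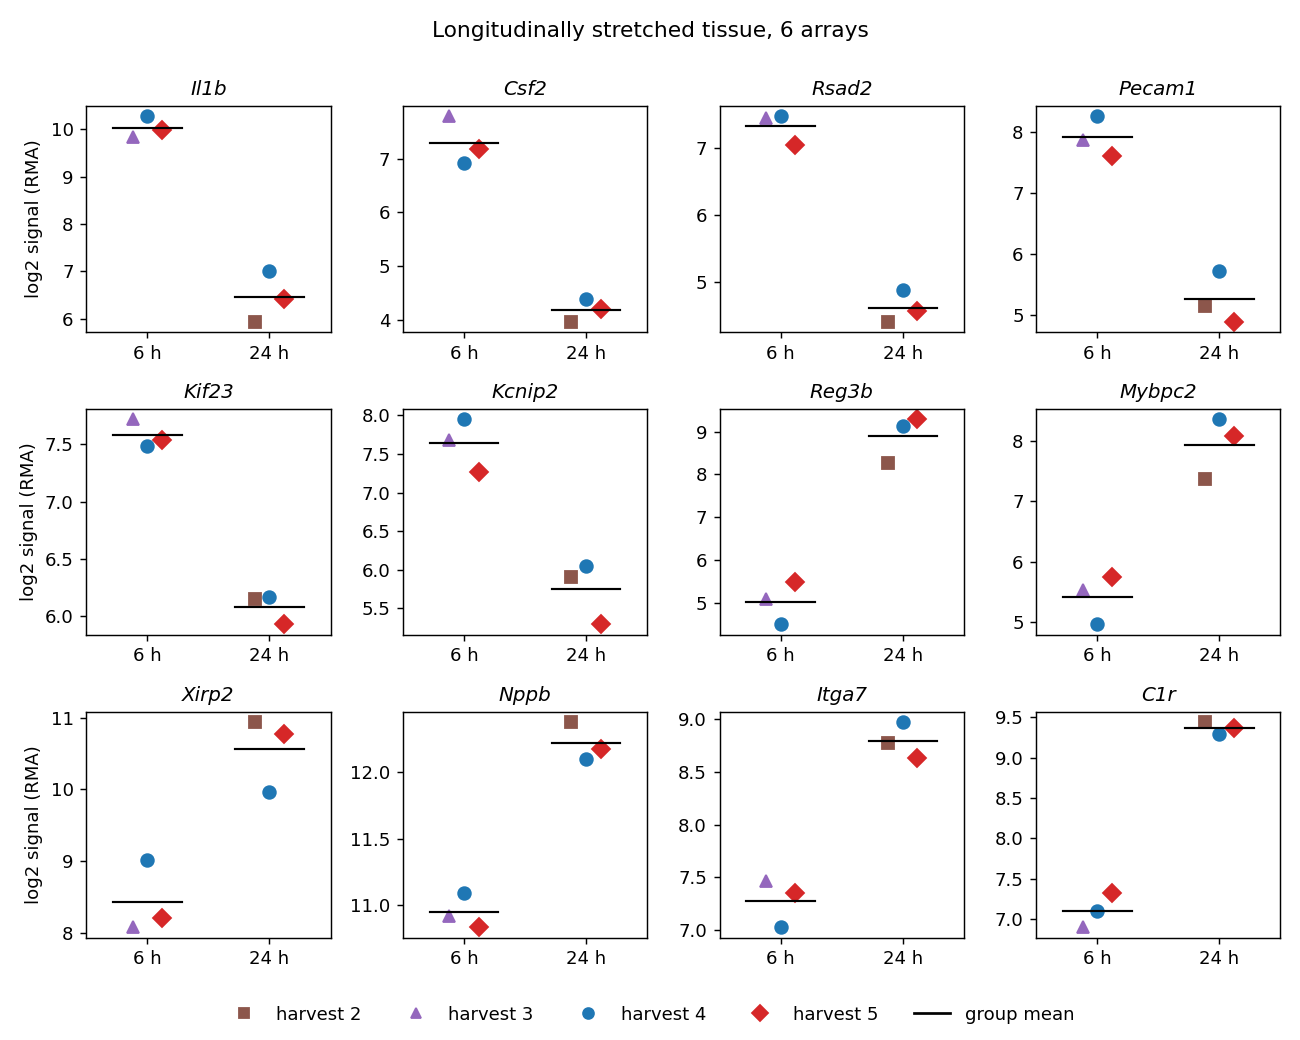
Log2 RMA signal of 12 genes on the 6 arrays of longitudinally stretched tissue, 6 h on the left and 24 h on the right of each panel, with colour and shape giving the harvest and a line the group mean. The groups do not overlap for any of the 12 genes, and harvests 4 and 5 move the same way in each panel. The 12 were picked among called genes, of which 99.8% share the sign in both harvests, so both traits describe the panels and test nothing. Axes are scaled per gene and do not start at 0.

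Inflammatory signalling genes had the lowest median of the lists examined. Of 24 measured genes of cytokines and inflammation, 15 fell, 1 rose (Il11, at an adjusted p of 0.048) and 8 did not pass, against 7.89% of all genes that fell, and their median change was -1.32. Il1b, which encodes interleukin 1 beta, a fever-inducing cytokine of the inflammasome, read 9.84, 10.28 and 9.99 at 6 h and 5.94, 7.0 and 6.42 at 24 h, a change of -3.67 ± 0.60 or 12.7-fold (limma, adjusted p = 3.7e-05). Every 24 h array lay below every 6 h array, and the harvest 4 array was the highest at both times. Csf2, the growth factor GM-CSF of granulocytes and macrophages, read 7.80, 6.93 and 7.18 at 6 h and 3.97, 4.38 and 4.20 at 24 h (-3.04 ± 0.20, limma adjusted p = 3.8e-13), with no overlap. Il1a, the other interleukin 1 ligand, changed by -2.53 ± 0.34, Ccl3, a chemokine for monocytes, by -2.46 ± 0.47 and Cxcl2, which attracts neutrophils, by -2.40 ± 0.38. The chemokine Ccl4 (-1.75), the interleukin 1 receptor antagonist Il1rn (-1.63), inducible nitric oxide synthase Nos2 (-1.61), the adhesion molecules Icam1 (-1.57) and Vcam1 (-1.15) and the NF-kappaB inhibitor Nfkbia (-1.5) fell as well. Not all members moved: the change was -0.28 for Il6 (adjusted p = 0.46), -0.27 for Ccl2 (0.81) and 0.12 for Socs3 (0.84), while Cxcl1 (-1.83, adjusted p = 0.068) and Ptgs2 (-1.11, 0.058) missed the threshold. Il11, which rose by 0.99, had overlapping groups. With single arrays left out, the falls numbered 13 to 15, and the rise of Il11 was lost in 4 of those 6 fits. Beside this, the summed signal of 12 macrophage markers (log2 of the sum) ran from 10.74 to 11.11 at 6 h and from 10.31 to 10.7 at 24 h, with 2 markers up (Mrc1, Csf1r) and 2 down (Emr1, Itgam), each lost without at least 1 array, and their part in the fall of cytokines was not tested.

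Most genes of the interferon response fell. This antiviral programme is switched on by type I interferon through a complex that contains Stat2 and Irf9, which binds a repeated element in the promoters of its targets. Of 26 measured genes, 21 fell, none rose and 5 did not pass, against 7.89% of all genes that fell. Their median change was -0.86. Rsad2, the antiviral enzyme viperin, read 7.45, 7.48 and 7.05 at 6 h and 4.41, 4.88 and 4.56 at 24 h (-2.70 ± 0.23, limma adjusted p = 2.5e-10), a 6.51-fold fall without overlap. Gbp2, an interferon-induced GTPase of the guanylate-binding family, fell by 2.37 on the log2 scale, the deconjugating enzyme Usp18 by 1.80, the chemokine Cxcl10 by 1.74 and the antiviral GTPase Mx2 by 1.57. Among regulators, the interferon factor Irf7 changed by -1.14 ± 0.14, Irf9 by -0.86, Irf1 by -0.74 and Stat2 by -0.73, whereas the proteasome subunits Psmb8 (-0.06, adjusted p = 0.79) and Psmb9 (-0.17, 0.56) did not pass. With any 1 of the 6 arrays left out, the falls numbered 20 or 21. Cxcl11, a chemokine also known as interferon-induced and no member of the list, went the other way. It read 5.68, 5.56 and 5.33 at 6 h and 6.68, 8.42 and 6.88 at 24 h (1.89 ± 0.40, limma adjusted p = 0.001), with the harvest 4 array of 24 h far above the others.

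The promoters of 3 members are shown since their transcripts fell together: those with the largest falls among called members that have 1 promoter window and the interferon-stimulated response element before their start. The element was searched as TTTC, 2 bases of any kind and TTTC, and on the other strand as GAAA, 2 bases and GAAA, in the RefSeq windows of assembly GRCr8 from 250 bases before to 50 after each gene's start. It was found in 12 of the 19 list members that have 1 such window (63.2%) and in 3.9% of all 33469 windows, and in none of 24 windows of mitosis genes. A match is a description of the letters. The 250 bases before the start are printed, with matches in capitals, which begin 147 bases before the start in Rsad2, 31 in Gbp2 and 243 in Cxcl10:
Rsad2 (chr6:48788121-48788370, minus strand): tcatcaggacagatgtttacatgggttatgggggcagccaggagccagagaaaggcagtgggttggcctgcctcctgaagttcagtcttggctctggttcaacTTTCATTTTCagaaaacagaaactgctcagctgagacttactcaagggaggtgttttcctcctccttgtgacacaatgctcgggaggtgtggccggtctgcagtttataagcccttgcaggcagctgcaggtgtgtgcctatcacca
Gbp2 (chr2:234005477-234005726, plus strand): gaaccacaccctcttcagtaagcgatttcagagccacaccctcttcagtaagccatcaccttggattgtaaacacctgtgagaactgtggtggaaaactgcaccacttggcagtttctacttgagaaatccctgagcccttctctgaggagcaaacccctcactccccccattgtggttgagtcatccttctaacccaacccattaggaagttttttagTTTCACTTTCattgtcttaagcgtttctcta
Cxcl10 (chr14:15988816-15989065, plus strand): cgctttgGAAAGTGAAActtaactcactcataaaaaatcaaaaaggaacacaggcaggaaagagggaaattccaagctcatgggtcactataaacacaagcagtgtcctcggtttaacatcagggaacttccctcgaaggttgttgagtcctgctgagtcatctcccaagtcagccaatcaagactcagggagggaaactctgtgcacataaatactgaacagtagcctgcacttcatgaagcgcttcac

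Endothelial genes fell over the same hours. Of 11 markers of endothelial cells, the lining cells of vessels that accompany myocytes in such isolations, 10 fell and Kdr (-0.32, adjusted p = 0.52) did not pass, with a median of -1.23. Among all genes, 7.89% fell. Pecam1, the adhesion molecule CD31 of endothelial junctions, read 7.86, 8.26 and 7.61 at 6 h and 5.15, 5.72 and 4.89 at 24 h (-2.61 ± 0.16, limma adjusted p = 4.4e-14), a 6.09-fold fall. The receptor kinase Tie1 changed by -1.87, endomucin (Emcn) by -1.85, the junction cadherin Cdh5 by -1.85, the adhesion molecule Esam by -1.61 and the angiopoietin receptor Tek by -1.23. Summed over the 11 markers, the log2 signal ran from 10.31 to 10.72 at 6 h and from 9.10 to 9.31 at 24 h, without overlap. In bulk RNA, fewer cells of a type and less RNA per cell cannot be told apart. The falls numbered 10 in all 6 fits without 1 array, and of the 11 markers 9 fell in unstretched tissue (median -1.25, with 6.5% of all genes falling there) and 10 in transverse tissue (median -1.34, with 8.37%). Myct1, which ranked among the 12 largest falls, read 7.10, 7.44 and 6.90 at 6 h and 4.40, 4.66 and 4.35 at 24 h. The pericyte gene Rgs5, a regulator of G protein signalling, fell by 1.54 on the log2 scale. Its list went the other way: of 10 smooth muscle and pericyte markers, Rgs5 was the 1 fall, while 5 rose (median 0.4). Among all genes, 6.35% rose.

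Mitosis genes fell, while hardly any DNA replication gene passed the test. Of 28 measured genes of mitosis and cytokinesis, 25 fell and none rose (median -1.17), while of 28 DNA replication genes 1 fell (Cdt1, -0.42, a call lost in 5 of the 6 fits without 1 array) and none rose (median -0.06). Among all genes, 6.35% rose and 7.89% fell, so the 1 DNA replication fall lay below that share. In unstretched tissue 6 mitosis genes fell (median -0.72) and 10 DNA replication genes rose (median 0.26). Among all genes there, 7.12% rose and 6.5% fell. In transverse tissue 25 mitosis genes fell (median -1.16) and 2 DNA replication genes fell (median -0.23), where 8.37% of all genes fell. In neither list did any gene's change differ between longitudinally stretched and unstretched tissue at an adjusted p of 0.05. Kif23, a kinesin of the central spindle that is needed to divide the cell body, read 7.72, 7.49 and 7.54 at 6 h and 6.14, 6.17 and 5.92 at 24 h (-1.52 ± 0.30, limma adjusted p = 0.00045). The proliferation antigen Mki67 read 7.98, 7.92 and 7.74 against 6.49, 6.29 and 6.30 (-1.48 ± 0.37, limma adjusted p = 0.0058), and neither gene's groups overlap. The anaphase activator Cdc20 changed by -1.42, the checkpoint kinase Bub1 by -1.41, the spindle bundler Prc1 by -1.29, the kinase Aurka by -1.17 and survivin (Birc5) by -0.78, and Top2a (-1.19, adjusted p = 0.062), Melk (-0.58, 0.062) and Cdc2 (-0.96, 0.10) missed the threshold. All 28 estimates were negative, but the number called rested on few arrays: it was 10 without the 6 h array of harvest 4, 12 without the 24 h array of harvest 5, 16 without that of harvest 2, 9 with harvests 4 and 5 only and 5 with each harvest's 0 h array subtracted.

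Many promoters of mitosis genes hold the cell cycle genes homology region, the element read by the complex that silences them outside division, and those of the 3 called members with the largest falls, which all hold it, are shown for that reason. It was searched as TTTGAA on both strands (TTCAAA on the other) in the same windows. The letters were found in 17 of 24 mitosis windows (70.8%), in 1 of 20 DNA replication windows (5.0%) and in 18.3% of all windows. Matches begin 79 bases before the start in Kif23, 117 and 99 in Mki67 and 51 in Cdc20, and again the 250 bases before the start are given:
Kif23 (chr8:71320585-71320834, minus strand): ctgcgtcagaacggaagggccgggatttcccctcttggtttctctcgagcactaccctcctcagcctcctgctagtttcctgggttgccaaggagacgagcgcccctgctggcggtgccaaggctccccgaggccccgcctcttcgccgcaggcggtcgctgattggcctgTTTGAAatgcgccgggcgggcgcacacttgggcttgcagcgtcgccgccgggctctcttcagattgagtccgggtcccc
Mki67 (chr1:199952594-199952843, minus strand): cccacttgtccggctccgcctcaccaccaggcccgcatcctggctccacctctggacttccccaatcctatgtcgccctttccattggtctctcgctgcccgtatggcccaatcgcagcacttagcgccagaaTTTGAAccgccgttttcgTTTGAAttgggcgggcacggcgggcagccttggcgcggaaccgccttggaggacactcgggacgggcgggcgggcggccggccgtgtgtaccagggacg
Cdc20 (chr5:137255800-137256049, minus strand): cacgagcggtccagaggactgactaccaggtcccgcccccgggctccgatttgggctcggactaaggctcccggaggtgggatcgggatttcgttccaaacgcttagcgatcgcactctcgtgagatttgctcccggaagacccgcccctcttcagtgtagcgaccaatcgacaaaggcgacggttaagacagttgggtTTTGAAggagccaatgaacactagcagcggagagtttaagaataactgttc

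Some genes of early and stress responses fell, though most members of these lists did not pass the test. Among all genes, 6.35% rose and 7.89% fell. Of 26 immediate early genes, transcription factors switched on within minutes of a stimulus, 8 fell, 1 rose (Jund) and 17 did not pass (median -0.35). The falls numbered 5 without the 6 h array of harvest 3 or 5 or the 24 h array of harvest 5, and Jund was lost in 4 of the 6 fits. The AP-1 subunit Fosl1 read 8.66, 8.12 and 8.66 at 6 h and 7.43, 7.2 and 7.09 at 24 h (-1.21 ± 0.18), and Klf6 (-0.82), Nr4a2 (-0.76) and Fosb (-0.67) fell, whereas Fos itself changed by -0.38 ± 0.14 (limma adjusted p = 0.065). Of 21 genes of the amino acid stress response, 9 fell and 1 rose. Slc7a11, the cystine importer, read 8.64, 8.60 and 8.53 at 6 h and 5.97, 6.28 and 6.16 at 24 h (-2.39 ± 0.32, limma adjusted p = 1.5e-06). The leucine transporter Slc7a5 (-1.22) and Psat1 of serine synthesis (-1.19) fell with it. In the unfolded protein response 6 of 21 genes fell, among them Ddit3 (-0.89), the death-linked factor CHOP, and the sensor Atf6 (-0.66), and 1 rose, the chaperone Calr (0.36). The heat shock list of 24 genes had 7 falls and 1 rise. Its largest change was that of the inducible chaperone Hspa1b, from 10.86, 10.20 and 10.71 to 8.40, 8.32 and 8.30 (-2.20 ± 0.16, limma adjusted p = 9.6e-12), whose near-identical copy Hspa1a the probes may not tell apart. The heat shock falls dropped to 3 without the 6 h array of harvest 5 and to 4 without the 24 h array of harvest 5, the amino acid falls to 5 without the 24 h array of harvest 2 or 4, and the unfolded protein falls to 3 without the 24 h array of harvest 5.

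Other large falls came from genes of mixed function. Tfpi2, a secreted inhibitor of serine proteases, read 8.53, 8.55 and 8.12 at 6 h and 5.29, 5.55 and 5.20 at 24 h (-3.04 ± 0.18, limma adjusted p = 4.4e-14). H19, an imprinted RNA that encodes no protein, changed by -2.48 ± 0.22, and Igf2, the growth factor gene of the same imprinted locus, by -1.72 ± 0.13. Cyp1a1, an oxidase of the aryl hydrocarbon response, fell from 8.01, 8.01 and 7.45 to 5.90, 5.22 and 4.81 (-2.49 ± 0.56, limma adjusted p = 0.0021), a call that ended when each harvest's 0 h array was subtracted. Adm, which encodes the vasodilator peptide adrenomedullin, read 9.40, 10.09 and 9.85 at 6 h and 7.88, 7.53 and 6.80 at 24 h (-2.41 ± 0.24).

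The largest rise was that of Reg3b, a secreted lectin of the regenerating family, which read 5.09, 4.49 and 5.48 at 6 h and 8.26, 9.12 and 9.30 at 24 h (3.98 ± 0.61 or 15.7-fold, limma adjusted p = 1.7e-05). All 3 arrays of 24 h lay at least 2 log2 units above all of 6 h. Both proteases that start the classical complement pathway rose: C1r went from 6.89, 7.10 and 7.32 to 9.44, 9.30 and 9.37 (2.32 ± 0.19) and C1s from 4.27, 4.55 and 4.06 to 6.36, 6.56 and 6.52 (2.31 ± 0.30). Mybpc2, the fast skeletal form of myosin-binding protein C, read 5.52, 4.95 and 5.74 against 7.37, 8.37 and 8.09 (2.67 ± 0.24, limma adjusted p = 5.8e-10). Among the rest of the 12 largest rises, Scn3b, an accessory subunit of sodium channels, changed by 2.46, Isyna1 of inositol synthesis by 2.24, Serinc2 by 2.05, the matrix protein fibulin 2 (Fbln2) by 2.00, Sertad4 by 1.99 and prostacyclin synthase (Ptgis) by 1.88. None of these calls named here ended when any single array of the 6 was left out.

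**Figure D2:**
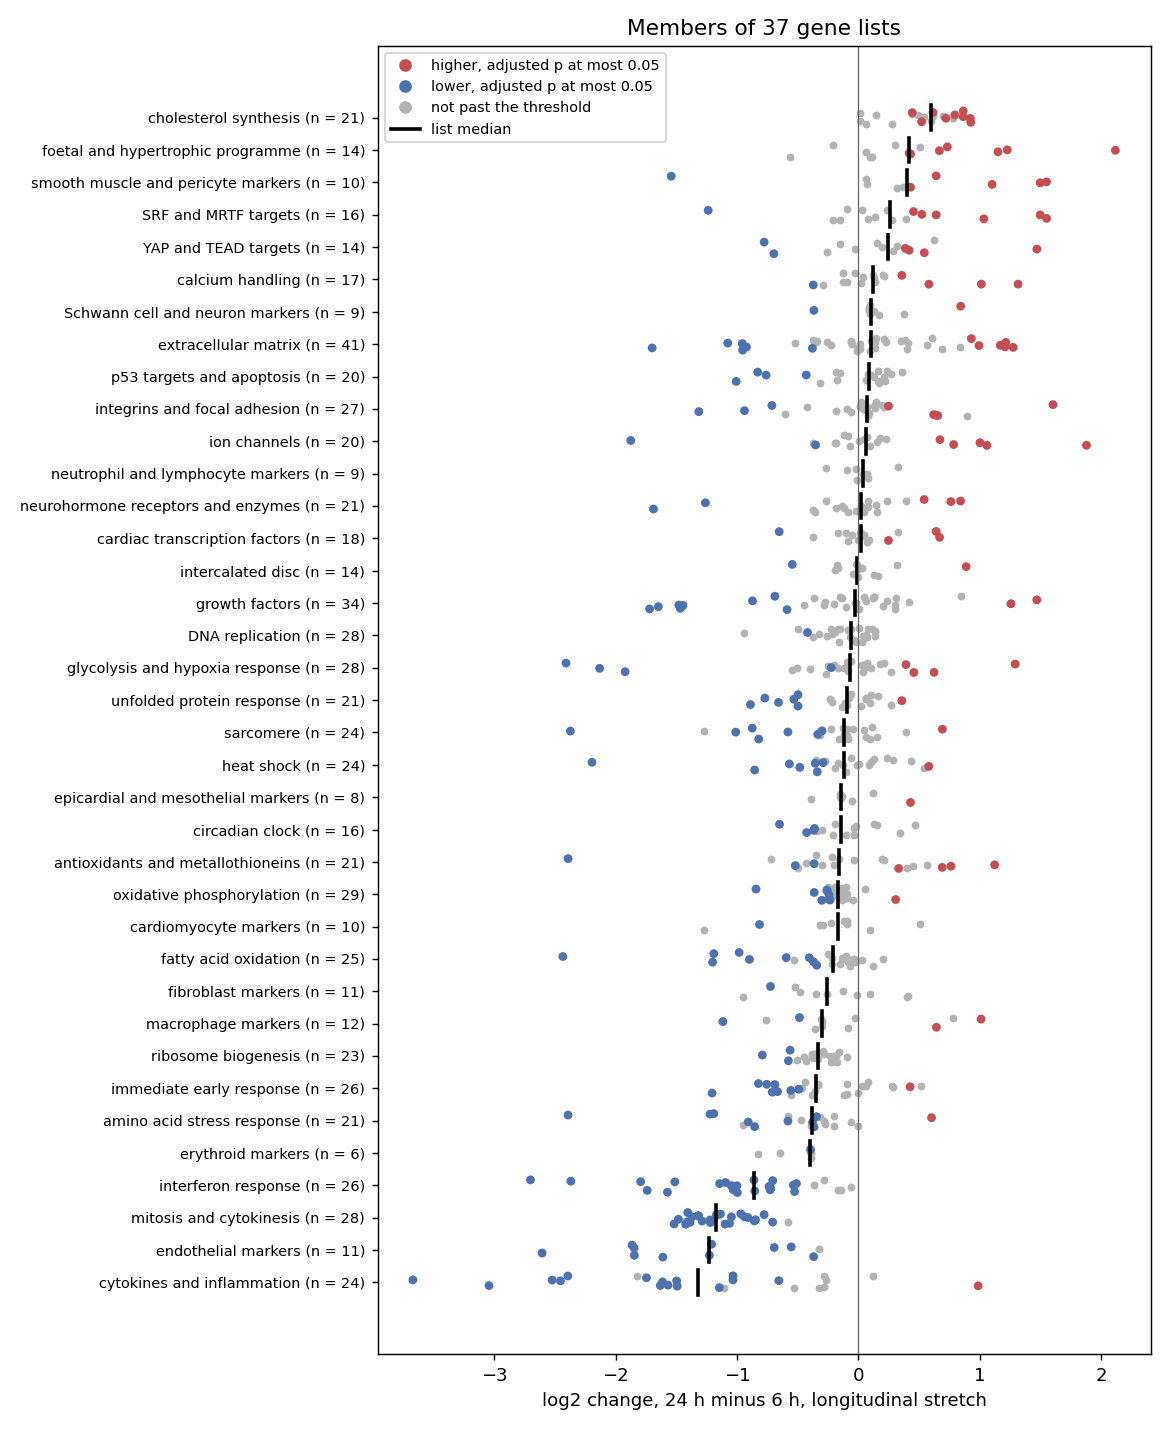
Log2 change from 6 h to 24 h of longitudinal stretch for each measured member of the gene lists, ordered by list median (black bar), with called rises in red, called falls in blue and the rest grey. Cytokines (-1.32), endothelial markers (-1.23), mitosis (-1.17) and interferon response (-0.86) lie at the lower end and cholesterol synthesis (0.60) and the foetal programme (0.42) at the upper, against a median of 0.02 for all genes.

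Part of the foetal and hypertrophic programme rose. Of its 14 genes, 7 rose and none fell (median 0.42), against 6.35% of all genes that rose. Nppb, the B-type natriuretic peptide released by loaded ventricle, read 10.92, 11.09 and 10.83 at 6 h and 12.38, 12.10 and 12.18 at 24 h (1.23 ± 0.23, limma adjusted p = 0.00031), and no arrays of the groups overlapped. Xirp2, which binds actin at intercalated discs, read 8.08, 9.01 and 8.21 against 10.94, 9.96 and 10.78 (2.12 ± 0.37), with the harvest 4 arrays closest together: 0.95 apart, against 2.57 in harvest 5. Rcan1, an inhibitor and target of calcineurin, rose by 1.15 and the stretch-responsive repressor Ankrd1 by 0.42. Csrp3, Fhl1 and Des, which rose by 0.67, 0.73 and 0.43, lost their calls in at least 3 of the 6 fits without 1 array, and the count fell to 4 without the 6 h array of harvest 5 or the 24 h array of harvest 2 or 5. The members known best did not all take part: the change was 0.51 ± 0.24 for Nppa (limma adjusted p = 0.16), -0.56 ± 0.30 for the skeletal actin Acta1 (0.24) and 0.11 ± 0.10 for the slow myosin Myh7 (0.51). In unstretched tissue 2 of these genes rose and 1 fell (median -0.10), where 7.12% of all genes rose and 6.5% fell. In transverse tissue 3 rose and 1 fell (median 0.06), where 7.05% of all genes rose and 8.37% fell. None of the 14 genes changed differently with and without longitudinal stretch at an adjusted p of 0.05.

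Actin-linked targets of serum response factor moved up in part. Of 16 measured targets of SRF and its coactivators, 6 rose and 1 fell, where 6.35% of all genes rose and 7.89% fell. The SRF rises numbered 4 or 5 without single arrays and 3 with harvests 4 and 5 only. In unstretched tissue none of the 16 rose and 2 fell, where 7.12% of all genes rose and 6.5% fell. In transverse tissue 2 rose and 2 fell, where 7.05% of all genes rose and 8.37% fell. The list medians were 0.26 under longitudinal stretch, 0.15 without stretch and 0.15 under transverse stretch. No member's change differed between stretched and unstretched tissue at an adjusted p of 0.05. Tagln, the actin-bundling protein transgelin, read 8.65, 8.76 and 8.93 at 6 h and 10.67, 9.83 and 10.58 at 24 h (1.5 ± 0.26), and calponin (Cnn1) read 7.87, 7.57 and 7.67 against 9.61, 8.33 and 9.76 (1.55 ± 0.36). In both genes the harvest 4 array was the lowest at 24 h. The focal adhesion protein zyxin (Zyx) rose by 0.52, and Myl9, a light chain of smooth muscle myosin, fell by 1.24 on the log2 scale. Of 14 targets of the mechanosensitive factors YAP and TEAD, 4 rose, 2 fell and 8 did not pass, and in unstretched tissue 3 rose and 1 fell. Tgfb2, a transforming growth factor on that list, read 8.83, 8.68 and 8.98 at 6 h and 10.54, 9.95 and 10.58 at 24 h (1.47 ± 0.37, limma adjusted p = 0.0056). Ctgf, a matricellular target of the same pathway, changed by 0.63 ± 0.29 (adjusted p = 0.15). Among 10 markers of smooth muscle and pericytes 5 rose and 1 fell (Rgs5), and 4 of the rises (Acta2, Tagln, Cnn1, Des) belong to the SRF or foetal list too. The log2 sum of the 10 ran from 12.56 to 12.73 at 6 h and from 12.95 to 13.44 at 24 h, and its part in these rises was not tested. The rises numbered 2 without either harvest 5 array and 3 without the 6 h array of harvest 4 or the 24 h array of harvest 2.

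Contractile and electrical genes split, where 6.35% of all genes rose and 7.89% fell. In the sarcomere list 7 of 24 genes fell (4 without the 6 h array of harvest 4 or the 24 h array of harvest 5) and 1 rose, a call lost without any 1 of the 6 arrays: the ventricular light chain Myl2 read 11.86, 12.11 and 11.92 at 6 h and 11.16, 10.63 and 11.08 at 24 h (-1.01 ± 0.14), troponin I (Tnni3) changed by -0.82, the Z-disc protein Ldb3 by -0.87 and the M-band protein Myom2 by -2.37, the last lost without either the 6 h array of harvest 4 or the 24 h array of harvest 5. The fast myosin Myh6 changed by -0.22 ± 0.12 (limma adjusted p = 0.21). Kcnip2, the subunit that sets the transient outward potassium current, read 7.68, 7.96 and 7.27 against 5.90, 6.05 and 5.29 (-1.88 ± 0.23, limma adjusted p = 2.7e-07). Of 20 ion channel and pump genes, 5 rose and 2 fell, and without single arrays 4 or 5 rose and 1 or 2 fell. Those falls were near the share of all genes. Calcium handling genes gave 4 rises (2 without the 6 h array of harvest 4) and 1 fall of 17, led by calsequestrin 1 (Casq1, 1.32, lost without the 6 h array of harvest 4) and triadin (Trdn, 1.01), while the calcium pump Atp2a2 changed by -0.03 ± 0.11 (adjusted p = 0.91) and the gap junction protein Gja1 by -0.01 ± 0.13 (0.97). The calcium falls were near the share of all genes too, and numbered 0 or 1 without single arrays.

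In metabolism, 9 genes of fatty acid use fell and 9 of cholesterol synthesis rose, and the other members of both lists did not pass the test. The shares over all genes were 6.35% for rises and 7.89% for falls. Of 25 genes of fatty acid uptake and oxidation, 9 fell and none rose (median -0.21). Fabp4, a fatty acid carrier also made by capillary endothelium, read 7.10, 8.22 and 6.70 at 6 h and 5.21, 4.84 and 4.66 at 24 h (-2.44 ± 0.29), and lipoprotein lipase (Lpl) changed by -1.20, the pyruvate dehydrogenase kinase Pdk4 by -1.19 and Hadh of beta-oxidation by -0.90. Within glycolysis and hypoxia genes (4 rises and 4 falls of 28, with 2 rises without the 6 h array of harvest 4 or 5 or the 24 h array of harvest 5), the muscle isoforms Pgam2 and Eno3 fell, by 2.13 and 1.92 on the log2 scale, and Hk1 (0.62) and Ldha (0.39), widely used enzymes, rose. Of 29 oxidative phosphorylation genes 8 fell and 1 rose, but 1 fell without the 6 h array of harvest 4, 3 without the 24 h array of harvest 4 and 5 without that of harvest 5. Fatty acid falls numbered 4 without either array of harvest 4 and 5 without the 24 h array of harvest 5. In cholesterol synthesis 9 of 21 genes rose and none fell (median 0.60), with all 21 estimates positive. Farnesyl diphosphate synthase (Fdps) read 8.78, 8.82 and 8.83 against 9.68, 9.83 and 9.62 (0.93 ± 0.23, limma adjusted p = 0.0051). The cholesterol count was 1 with harvests 4 and 5 only, 2 with each harvest's 0 h array subtracted, 2 without the 6 h array of harvest 3 or 4 or the 24 h array of harvest 4, 3 without the 24 h array of harvest 2, 4 without the 6 h array of harvest 5, and 16 with the 2 isotropic arrays exchanged or left out.

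Matrix and adhesion genes changed in both directions. Of 41 matrix genes, 6 rose and 6 fell, where 6.35% of all genes rose and 7.89% fell. Without either array of harvest 5 the falls numbered 3, near the share of all genes. The crosslinking oxidase Loxl1 rose by 1.27, fibronectin (Fn1) by 1.22 and the membrane protease Mmp14 by 1.21, and collagen XIV (Col14a1) read 7.85, 7.30 and 8.14 at 6 h and 6.03, 5.77 and 6.12 at 24 h (-1.70 ± 0.38). Col1a1, the main fibrillar collagen chain, changed by 0.41 ± 0.25 (limma adjusted p = 0.32), and of 11 fibroblast markers 1 fell (Fap, lost in 5 of the 6 fits without 1 array) and none rose. The laminin receptor subunit Itga7 of striated muscle read 7.46, 7.02 and 7.35 against 8.77, 8.98 and 8.63 (1.60 ± 0.13, limma adjusted p = 4.7e-11), which had the lowest adjusted p of 5 rises among 27 integrin and focal adhesion genes. That count was 1 without the 6 h array of harvest 4, 2 without the 24 h array of harvest 2 and 3 without the 6 h array of harvest 3 or 5 or the 24 h array of harvest 5. The collagen receptor subunits Itga2 (-1.31) and Itga1 (-0.94) and the adapter Lims1 (-0.71) fell. The list had 3 falls in all, not far from the 7.89% of all genes. Among 34 growth factor genes 8 fell, against 7.89% of all genes, and 2 rose, a number near the 6.35% of all genes. The rises numbered 1 without the 6 h array of harvest 4 or 5 or the 24 h array of harvest 5. The falls included Pdgfb (-1.48), Bmp2 (-1.47) and the activin subunit Inhba (-1.45).

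Whether the change over these 18 h depended on stretch was asked by setting it against the change in unstretched anisotropic tissue. The stretched and unstretched groups shared only harvest 5 at 6 h and harvests 2 and 4 at 24 h, so the comparison leans on the harvest term. The difference of the 2 changes passed for 22 genes (0.117% of 18838), 17 with a lower (0.0902%) and 5 with a higher value under stretch (0.0265%), and 1244 genes had an unadjusted p under 0.05. Csf2 came out at the lower end (-2.21 ± 0.28, limma adjusted p = 5.8e-05): unstretched tissue read 4.21, 4.91 and 5.19 at 6 h and 3.89, 4.0 and 4.06 at 24 h, so that the levels lay apart at 6 h and lay close at 24 h. Il7r, the interleukin 7 receptor, followed (-1.92 ± 0.32), at 5.94, 6.63 and 6.79 under stretch and 4.33, 4.74 and 5.07 without at 6 h. Il7r, Enpp3 and Ifi204 lost the call without the 6 h longitudinal array of harvest 5. Enpp3, an ecto-nucleotidase, and Ifi204, an interferon-inducible DNA sensor in mouse, had their gap at 24 h instead. Enpp3 read 7.90, 7.62 and 7.83, then 7.01, 7.58 and 7.25 under stretch, but 7.09, 7.72 and 7.72, then 8.24, 8.89 and 9.03 without (difference -1.61 ± 0.29). For Ifi204 the difference was -1.42 ± 0.23, made of -0.98 under stretch and 0.44 without. Like Csf2, the genes Tfpi2, Irg1, Csf3 and Slamf7 stood higher under stretch at 6 h, by 1.06 to 1.70, and differed by -0.22 to 0.33 at 24 h. Irg1, Csf3 and Slamf7 lost the call without the 6 h longitudinal array of harvest 5 or replicate 1 of unstretched tissue at 6 h. They also lost it with each harvest's 0 h array subtracted and with genes of a mean log2 signal under 5 left out. Tissue factor (F3), the starter of coagulation, fell by 0.70 under stretch and rose by 0.50 without (difference -1.19 ± 0.16, limma adjusted p = 0.00013).

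**Figure D3:**
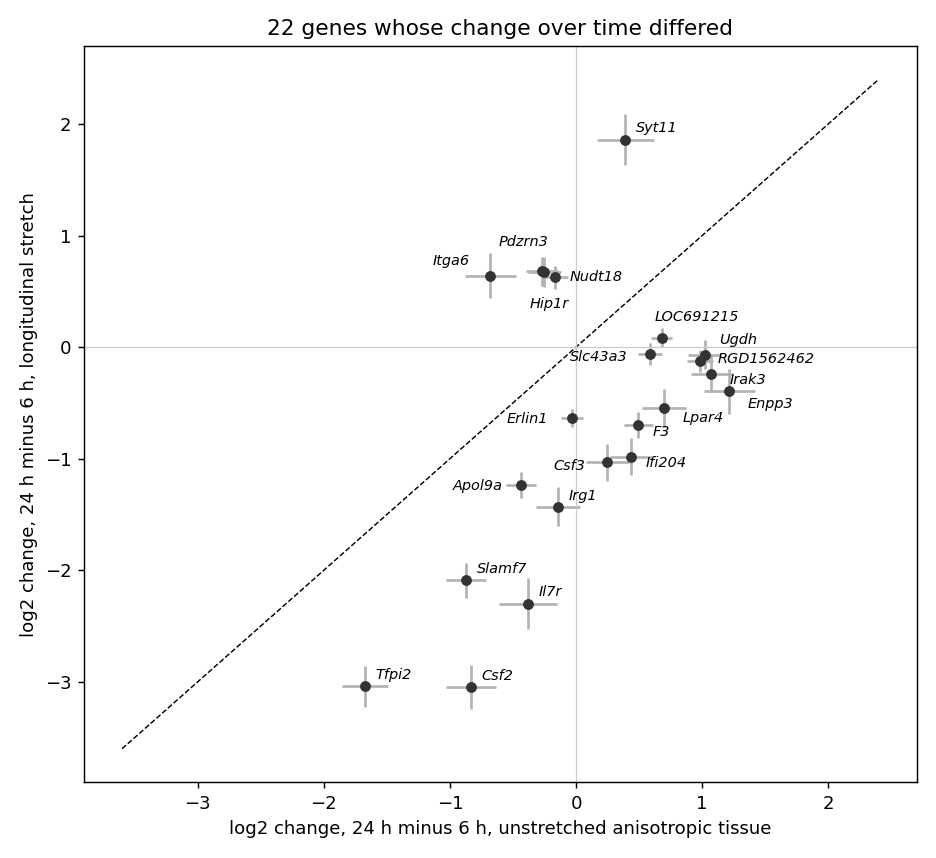
Log2 change from 6 h to 24 h in unstretched anisotropic tissue (x axis) and under longitudinal stretch (y axis) for the 22 genes whose changes differed, with bars giving standard errors and the dashed line equal change. The 17 genes below the line include Csf2 and Tfpi2 at the bottom, and the 5 above it include Syt11 at the top (1.86 against 0.39).

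On the other side, Syt11, a synaptotagmin of vesicle traffic, read 5.97, 5.70 and 5.99 and then 7.55, 7.74 and 8.07 under stretch, and 5.6, 5.86 and 5.89 and then 5.91, 6.13 and 6.19 without (difference 1.47 ± 0.32, limma adjusted p = 0.049). The laminin receptor subunit Itga6 (1.32 ± 0.29, adjusted p = 0.046), the ligase Pdzrn3 (0.95), the clathrin adapter Hip1r (0.92) and the hydrolase Nudt18 (0.80) had the same sign. The difference remained called for Csf2, Tfpi2 and F3 whichever of the 12 arrays of both groups was left out, and RGD1562462 shared this, a locus with no gene name that was singled out after its values were seen. With each harvest's 0 h array subtracted, Tfpi2 and F3 lost the call, and Tfpi2 also lost it with the longitudinal arrays of harvests 4 and 5 only. Csf2 and RGD1562462 lost it with genes of a mean log2 signal under 5 left out, a filter that removed Csf2 itself. With single arrays left out, the call was lost for Syt11 without any of 10 of the 12 and for Itga6 without any of 11. In all, 4 genes passed without the 6 h longitudinal array of harvest 5, 14 without the 24 h longitudinal array of harvest 5, 11 without replicate 1 of unstretched tissue at 6 h or replicate 2 at 24 h, 3 with each harvest's 0 h array subtracted and 71 with the 2 isotropic arrays left out. None of the 26 interferon, 28 mitosis, 14 foetal programme, 21 cholesterol or 11 endothelial genes was among the 22, although the medians under stretch and without it were -0.86 and -0.39, -1.17 and -0.72, 0.42 and -0.10, 0.60 and 0.56, and -1.23 and -1.25. In the cytokine list Csf2 and Csf3 passed, and the medians were -1.32 and -0.35.

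Against transverse stretch over the same hours, the change differed for 1 gene, Csf2 (0.00531% of 18838, with 466 genes at an unadjusted p under 0.05 and a median standard error of the difference of 0.14). Transverse tissue read 5.84, 5.75 and 5.16 at 6 h and 4.15, 4.09 and 4.46 at 24 h, a change of -1.30 ± 0.21, so that the difference was -1.74 ± 0.28 (limma adjusted p = 0.011). At 6 h all 3 longitudinal arrays lay above all 3 transverse ones, and at 24 h the groups overlapped. No gene passed without the longitudinal array of harvest 3 at 6 h or of harvest 2 at 24 h, or without replicate 3 of the transverse group at either time. With 3 arrays per group a difference that misses the threshold does not show that both directions act alike.

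The 0 h and 96 h arrays place the change in a longer course. Csf2 stood at 4.42 ± 0.24 at 0 h (SD, n = 6), 7.30 ± 0.45 at 6 h, 4.18 ± 0.21 at 24 h and 3.88 ± 0.03 at 96 h of longitudinal stretch (SD, n = 3 each), and Il1b at 7.72 ± 0.35, 10.04 ± 0.22, 6.45 ± 0.53 and 5.26 ± 0.03. Both had their highest mean at 6 h. Rsad2 went from 7.85 ± 0.36 through 7.32 ± 0.24 and 4.62 ± 0.24 to 4.08 ± 0.19 and Pecam1 from 9.56 ± 0.18 through 7.91 ± 0.33 and 5.25 ± 0.42 to 4.48 ± 0.07, lower at each time. Reg3b was highest at 24 h (8.89 ± 0.56) and back at 5.18 ± 1.00 at 96 h, and Mki67 was lowest at 24 h (6.36 ± 0.12, then 6.98 ± 0.11). Nppb and Xirp2 had their highest means at 96 h, 12.51 ± 0.33 and 11.46 ± 0.66. Between 24 h and 96 h of longitudinal stretch 1073 genes rose and 971 fell (5.7% and 5.15% of all genes, 10.9% together). The 0 h tissue was isotropic, so that layout and time differ together in that step.

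**Figure D4:**
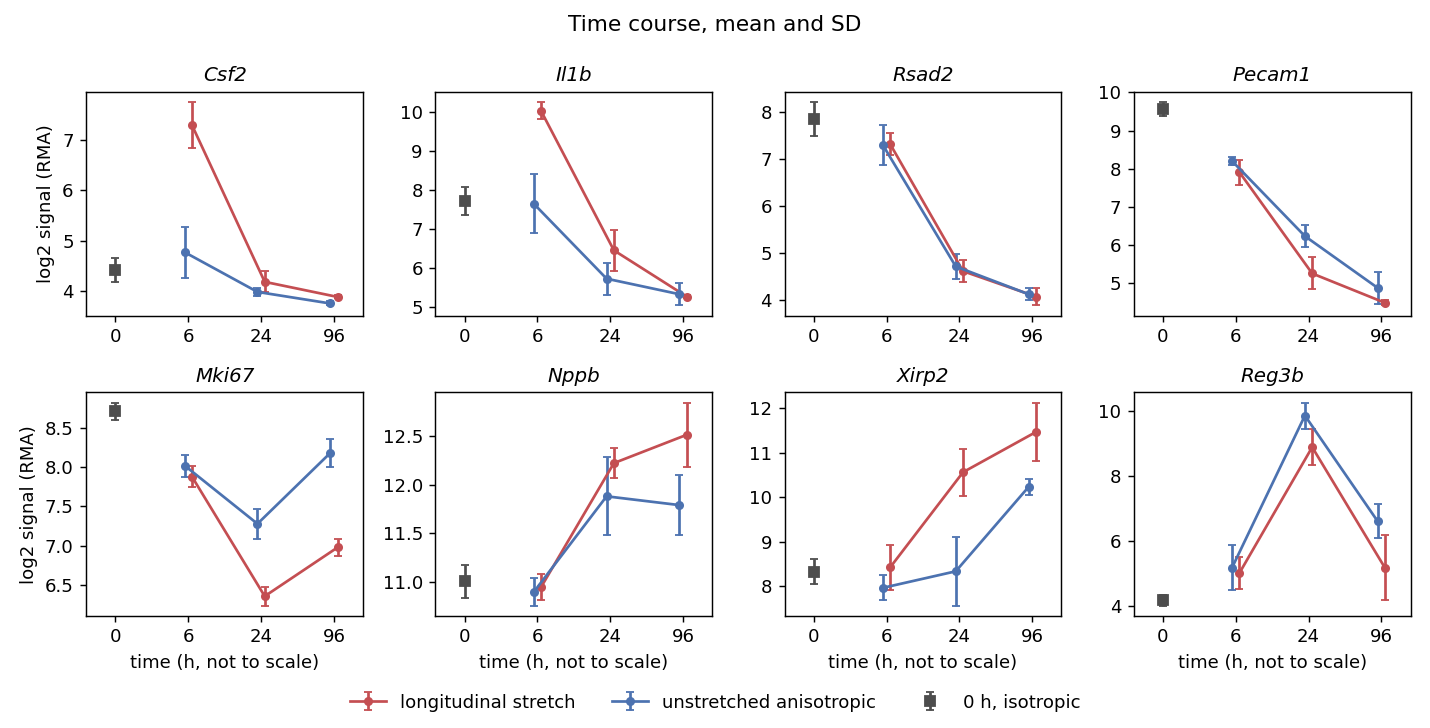
Mean log2 RMA signal with SD of 8 genes at 0, 6, 24 and 96 h (time axis not to scale) in longitudinally stretched (red) and unstretched anisotropic (blue) tissue, n = 3 per point, and in isotropic tissue at 0 h (grey square, n = 6). Csf2 and Il1b stand highest at 6 h under stretch, Reg3b at 24 h in both, and Xirp2 at 96 h in both.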

How the data were processed

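Total RNA of 51 engineered tissues was measured on Affymetrix arrays. The authors deposited log2 signals and, per the submitters' processing notes, named RMA and the Affymetrix software Expression Console for them, as well as log2 ratios between groups, which equal plain differences of group means for the contrast used here and served only as a check. Versions and settings are not given in the sources used here. Groups and harvests came from the labels.

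Of 29214 probe sets, 20649 had 1 gene symbol, 229 of them through a RefSeq accession, and 8563 without a symbol and 2 with several were left out. Each of 18838 genes was represented by its brightest probe set over all arrays, with no filter on signal. With limma 3.58.1 in R 4.3.3, group means plus harvest terms were estimated from the 51 arrays together, leaving 30 residual degrees of freedom, with eBayes and Benjamini-Hochberg adjustment per comparison at 0.05. RMA scales arrays to one distribution, so changes are relative to the whole array. The labels call the arrays biological replicates and name the harvest, which pairs arrays across times: deviations from group means correlated at 0.14 in harvest 4 and 0.27 in harvest 5 between the times, and on average at 0.22 within and -0.05 between harvests over all groups. Genes named are the 12 largest rises and 12 largest falls with the same sign in harvests 4 and 5, up to 4 of the largest called changes per list, members of lists covered whole, 12 fixed genes and the 4 most negative and 4 most positive differences per interaction, and further members are given with their test. Loci without a gene name were skipped. Members, lists and tests were chosen with earlier results of these data known. The fit was tested on simulated data. Alternatives were no harvest term, harvest as a random block, 0 h subtraction, fewer arrays, repeated quantile scaling, a filter on dim genes, the mean of all probe sets, an intensity-dependent prior and a minimum of 1.5-fold. Figures used Python with matplotlib. A few list members are counted but not reported here by name.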

Additional observations from a re-analysis of the deposited data

Results flagged for a closer look

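The change from 6 h to 24 h differed between longitudinally stretched and unstretched anisotropic tissue for 22 genes by the limma test of the difference itself. The largest differences were -2.21 for Csf2, -1.92 for Il7r, -1.61 for Enpp3 and -1.42 for Ifi204, and, in the other direction, 1.47 for Syt11, 1.32 for Itga6, 0.95 for Pdzrn3 and 0.92 for Hip1r. Between longitudinal and transverse stretch 1 gene differed, Csf2, by -1.74. At 0 h, 1 of 6 arrays stood apart from the others for Pecam1, at 9.22 where the rest lay between 9.55 and 9.69. The gap made up 0.711 of the range of the 6 values. Of the genes, 8 were looked at, and how often such a gap arises by chance was not tested.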

How the results depend on the processing

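Left out in turn, the arrays gave 695 to 1009 genes that rose, 882 to 1134 that fell, 4 to 31 whose change differed from unstretched tissue and 0 to 1 from transverse tissue. With no replicate block, that is without the harvest term, 839 rose and 1110 fell, and 1897 of these 1949 calls were also called with it. Subtracting each harvest's 0 h array gave 485 rises, 569 falls, 3 differences from unstretched and 0 from transverse tissue. Harvests 4 and 5 only gave 770, 890 and, against transverse tissue, 0. A minimum of 1.5-fold gave 349 and 555. Differences from unstretched tissue numbered 51 with the 0, 6 and 24 h arrays only (0 from transverse), 63 with the 2 isotropic arrays exchanged, 71 with both left out and 14 with dim genes left out (0 from transverse, since Csf2 was among the genes removed). No gene called in both of 2 fits had opposite signs in any of these alternatives. Without single arrays the near-zero change of Atp2a2 ran from -0.10 to 0.03 and that of Gja1 from -0.07 to 0.08. The change of Atp2a2 turned to 0.03 with harvests 4 and 5 only and to 0.03 without the 6 h array of harvest 3, and that of Gja1 to 0.02 with quantile scaling repeated and to 0.01, 0.02 and 0.08 without the 6 h arrays of harvest 3 and harvest 5 and the 24 h array of harvest 5. The causes were not tested. Of 2644 recomputed values of single genes, 2360 kept direction and side of the threshold, 276 lost the call, 2 gained it and 6 changed sign. Genes with a mean log2 signal under 5 were the ones left out as dim, and signal over background was not measured per gene here.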

Other observations

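Of 16 measured clock genes 4 fell, none rose and 12 did not pass (median -0.14), against 7.89% of all genes that fell. Per3, a period gene, changed by -0.65 ± 0.15 and the repressor Nr1d1 by -0.36 ± 0.09. Nr1d1 read 7.63, 7.64 and 7.40 at 6 h and 7.2, 7.15 and 7.08 at 24 h, without overlap. The falls numbered 2 without the 24 h array of harvest 2 or 5. Among 18 cardiac transcription factors 3 rose and 1 fell, where 6.35% of all genes rose and 7.89% fell, with the estrogen-related receptor Esrrg at 0.64 ± 0.15 and the ventricular factor Irx4 at -0.65 ± 0.18, the latter lost without the 24 h array of harvest 5, and 1 factor rose without either array of harvest 4.

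In the neurohormone list of 21 genes, the endothelin receptor Ednrb read 6.74, 6.90 and 6.02 at 6 h and 4.63, 5.08 and 4.68 at 24 h (-1.69 ± 0.21) and its ligand gene Edn1 changed by -1.26 ± 0.27, while Ace, the angiotensin-converting enzyme, rose by 0.84 ± 0.21, a call lost without either array of harvest 4. Of 21 antioxidant genes 4 rose (2 without the 24 h array of harvest 5) and 3 fell, where 6.35% of all genes rose and 7.89% fell. The NADPH-producing enzyme Me1 (0.76) was higher. In the list of p53 targets and apoptosis 4 of 20 fell, against 7.89% of all genes, and none rose. Its median was 0.09, with 12 of the 20 estimates positive. Among the 4 falls were the caspase inhibitor gene Birc3 (-1.01) and Bcl2l11 (-0.83), which promotes cell death. Ncam1, an adhesion molecule of nerve and muscle cells, read 8.75, 8.56 and 8.50 at 6 h and 8.86, 9.56 and 9.55 at 24 h (0.84 ± 0.14), with the 24 h array of harvest 2 the lowest of its group.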
